A study of Mus musculus with 160 samples.

Results

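Brown and subcutaneous fat were compared within SJL, 1 of the 4 inbred mouse strains of the series, to find which brown fat genes its subcutaneous fat holds and which it lacks. The samples were chosen by strain and tissue from the labels, 8 of brown fat and 8 of subcutaneous fat, 16 of the 160 samples in the series. That SJL subcutaneous fat is rich in Ucp1 was already known from these data when the comparison was chosen. All mice were males that ate 1 of 4 diets, named American, Mediterranean, vegetarian and vegan, from 12 to 18 weeks of age. Each depot had 2 mice per diet. Of 9 SJL mice, 7 gave both depots, 1 gave only brown fat (mouse 54) and 1 only subcutaneous fat (mouse 55). Where SJL was compared with C57BL/6J, A/J and DBA/2J, the 48 brown and subcutaneous samples of these strains, on the same diets and of the same ages, were used. RNA came from whole pieces of tissue, so each sample also holds RNA of vessels, nerves, blood cells and connective tissue, and fewer cells of a type cannot be told apart from less RNA per cell.

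Brown fat burns fuel to make heat. Its many mitochondria carry UCP1, a protein of the inner membrane that lets protons return without making ATP, and noradrenaline turns this on through β-adrenergic receptors and cAMP. Subcutaneous white fat mainly stores fat and secretes hormones such as leptin, but it can gain fat cells with UCP1, called beige, which arise from another developmental lineage than classical brown fat cells.

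Levels below are CPM, counts relative to the library total, after scaling each library for its composition (TMM), and a log2 difference is brown minus subcutaneous from edgeR with diet in the model, so that a positive value is higher in brown fat. A gene was said to be higher or lower only at an adjusted p under 0.05. Library totals were 20.1 to 28.3 M counts in brown fat and 20.3 to 38.7 M in subcutaneous fat. Transcripts of the mitochondrial genome took 16.3% ± 1.03 of the counts in brown fat and 7.75% ± 2.06 in subcutaneous fat (SD, n = 8 each), and the TMM factors were 0.763 to 0.827 in brown and 1.08 to 1.36 in subcutaneous fat. The scaling therefore bears on every level: on plain library totals the median difference over all genes was -0.60, against 0.09 with TMM. Liver RNA, taken as Alb above 10% of its mean liver level, was found in 3 of the 16 samples. Alb, the plasma albumin of hepatocytes, stood at 21.4% of its mean liver level in brown fat of mouse 49, 14.8% in brown fat of mouse 57 and 26.5% in subcutaneous fat of mouse 64. The last also held Ckm, the muscle creatine kinase, at 13.3% of its mean muscle level.

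The depots differed in most genes. Of 18888 genes tested, 7400 (39.2%) were higher in brown fat and 6491 (34.4%) were higher in subcutaneous fat, 13891 (73.5%) in all. The samples of the depots did not overlap for 46.6% of the genes. Counts of list members below stand against these shares. On plain library totals the split was 2853 higher in brown and 11869 higher in subcutaneous fat, and on the authors' TPM with 1 added it was 2304 and 12476. Without the samples with liver RNA it was 6842 and 7827.

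Thermogenic genes were higher in brown fat nearly throughout, and SJL subcutaneous fat still held a measurable part of each. Of 30 genes listed for heat production and its control, 29 passed the filter on low counts, 27 were higher in brown fat, Irf4 was lower and Zbtb16 did not pass the test. Their median log2 difference was 2.26. The subcutaneous mean stood at a median of 22.4% of the brown mean, with 1 gene from 5 to 10%, 17 from 10 to 25%, 8 from 25 to 50%, 2 from 50 to 100% and 1 above. Without TMM scaling this median was 36.0%, and on TPM it was 39.0%.

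Ucp1 lies on chromosome 8 at 84016647 to 84025085 of GRCm39. In brown fat it ranged from 6639 to 11678 CPM with a median of 10305. In subcutaneous fat it ranged from 813 to 2483 CPM with a median of 1678. The highest subcutaneous sample (mouse 53) thus lay below the lowest brown sample (mouse 49), and no subcutaneous sample was near 0. Per sample, subcutaneous Ucp1 stood at 2226 CPM in mouse 49, 1190 in mouse 50, 2483 in mouse 53, 813 in mouse 55, 1828 in mouse 57, 1807 in mouse 59, 1550 in mouse 63 and 1025 in mouse 64. The means were 9971 ± 1478 and 1615 ± 584 CPM (SD, n = 8), a log2 difference of 2.63 (SE 0.23, adjusted p = 8.67e-08). Subcutaneous fat thus held 16.2% of the brown level, or 26.2% without TMM scaling and 28.4% on TPM. Within the 7 mice with both depots, the share ran from 9.94% to 33.5% with a median of 16.7%, and mouse 49, whose brown sample was low in Ucp1 and held liver RNA, was the highest.

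Other genes at the fat droplet and mitochondrion showed differences of like size. Cidea, which enlarges lipid droplets, stood at 1546 to 2423 CPM in brown fat and 185 to 548 CPM in subcutaneous fat, with no overlap. Its means were 2092 ± 306 and 320 ± 114 CPM, a log2 difference of 2.72 (SE 0.21, adjusted p = 2.63e-08). Cox7a1 and Cox8b, the muscle and brown fat forms of cytochrome c oxidase subunits, differed by 2.51 (SE 0.19) and 2.04 (SE 0.18). Plin5, which ties droplets to mitochondria, differed by 2.15, and Cpt1b, which lets fatty acids into mitochondria, by 2.46. Acot11, a fatty acyl-CoA thioesterase, was the thermogenic gene held least: it stood at 723 to 1353 CPM in brown fat and 29.1 to 136 CPM in subcutaneous fat, 8.35% of the brown mean. Its log2 difference was 3.61 (SE 0.30, adjusted p = 1.28e-07). Pank1, which starts coenzyme A synthesis, was held at 13.6%, Letmd1, a mitochondrial protein, at 16.6%, and Elovl3, a fatty acid elongase of brown fat, at 19.8%.

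Of the transcription factors and coactivators of the brown program, those named here were held at 15.9 to 33.1%. Prdm16, which drives the brown over the muscle fate, ranged from 29.7 to 52.7 CPM in brown fat and 9.05 to 16.1 CPM in subcutaneous fat. Its means were 40.9 ± 7.87 and 12.0 ± 2.36 CPM, with a log2 difference of 1.76 (SE 0.11, adjusted p = 4.02e-09). Ebf2, which marks brown and beige precursors, stood at 78.7 ± 9.88 and 26.1 ± 3.25 CPM, 33.1% of the brown mean. Within the 7 mice, subcutaneous Prdm16 was 24.7 to 38.9% and Ebf2 27.9 to 39.8% of the same animal's brown level. The coactivators Ppargc1a and Ppargc1b, which raise mitochondrial genes, differed by 2.07 (SE 0.17) and 2.65 (SE 0.20). Their partners Esrra and Esrrg differed by 1.85 (SE 0.10) and 2.26 (SE 0.14), and Ppara, a fatty acid receptor, by 2.63 (SE 0.21).

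Genes of the hormone and nerve signals of brown fat varied in how much was held. Adrb3, the β3-adrenergic receptor of fat cells, ranged from 345 to 568 CPM in brown fat and 192 to 382 CPM in subcutaneous fat, so that the depots overlapped. Its log2 difference was 0.71 (SE 0.14, adjusted p = 0.000296). The call rests on the scaling, since the difference was 0.02 on library totals and -0.09 on TPM with 1 added, neither past the threshold. Dio2, the deiodinase that makes active thyroid hormone inside the cell, ranged from 12.5 to 31.0 CPM in brown fat and 3.12 to 11.4 CPM in subcutaneous fat. The depots thus came close without overlap, with a log2 difference of 1.54 (SE 0.23) and 35.4% held. S100b, a calcium-binding protein that brown fat cells secrete onto nerves, was held at 39.7% and Clstn3, a calsyntenin, at 20.6%.

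Irf4 and Zbtb16 differed from the rest of the list. Irf4, a transcription factor of fasted fat and of lymphocytes, stood at 11.6 to 18.4 CPM in brown fat and 19.5 to 33.2 CPM in subcutaneous fat, with a log2 difference of -1.04 (SE 0.12, adjusted p = 2.5e-06). Markers of B cells summed to 3.43 to 60.8 CPM in brown and 536 to 1150 CPM in subcutaneous fat, and those of T cells to 12.2 to 49.9 and 586 to 1073 CPM; their part in the Irf4 difference was not tested. Zbtb16, a zinc finger protein, stood at 17.6 ± 6.14 and 16.6 ± 2.63 CPM, and the sign of its difference of 0.04 (adjusted p = 0.839) turned under other scalings, to -0.64 on library totals. Slc27a2, a fatty acid transporter that liver also makes, ranged from 181 to 541 CPM in brown and 18.4 to 382 CPM in subcutaneous fat. The subcutaneous maximum was mouse 64, which held liver RNA, and the part of that RNA was not tested.

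**Figure D1:**
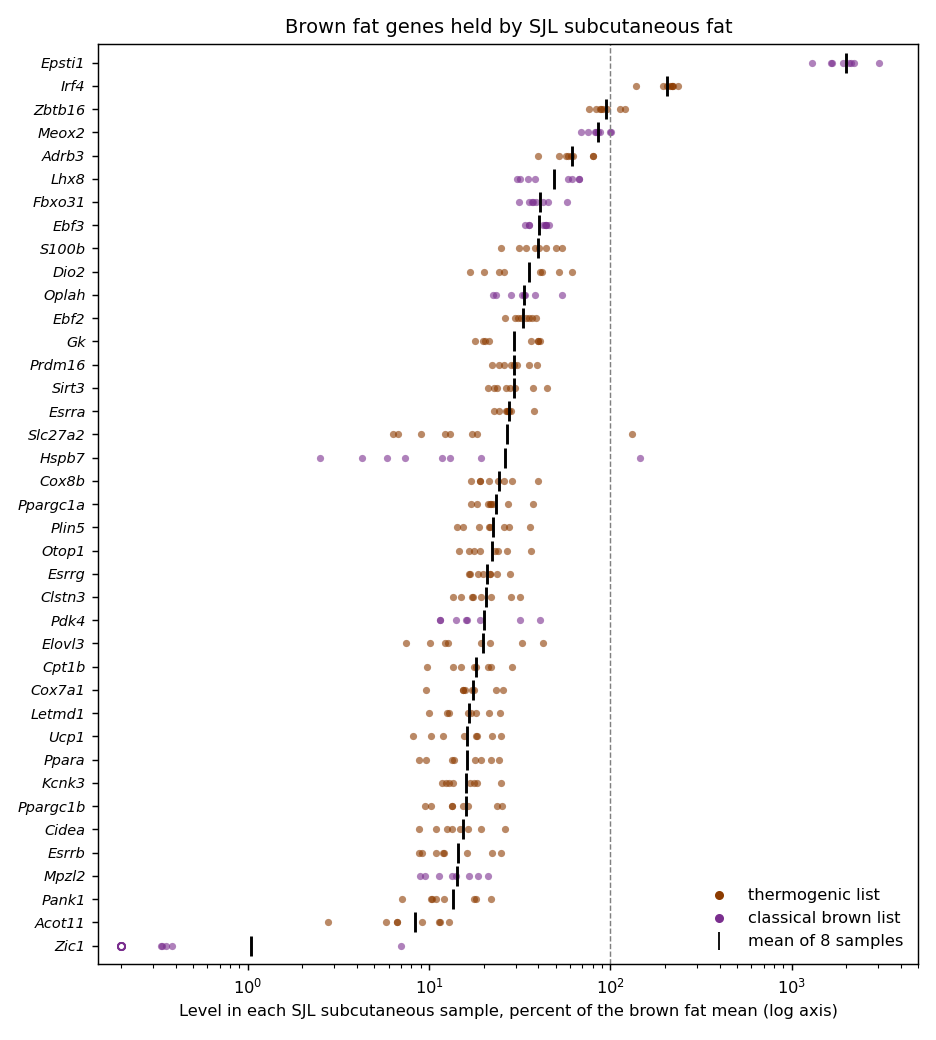
Share of each brown fat gene held by SJL subcutaneous fat: each point is 1 of 8 subcutaneous samples in percent of the mean of the 8 brown samples (log axis), the bar is the mean, open points at the left edge are samples with 0 counts, and the dashed line is 100%. Thermogenic genes lie mostly between 10 and 50%, Zic1 at 1.05% and Irf4 and Epsti1 above 100%.

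The promoters of 4 of these genes are printed: Ucp1 as the defining gene of brown fat, Zic1 as the listed brown fat gene held least, and Dio2 and Clstn3 because theirs were the thermogenic promoters with a cAMP response element. These 4 were picked after their values were seen. The sequences are those of RefSeq on GRCm38.p6 and not on the build of the counts. They run 5′ to 3′ from 250 bases before to 50 bases after the start, and capitals mark TGACGTCA, the palindromic cAMP response element. Ucp1 lies at chr8:83290098-83290397 (+ strand), Dio2 at chr12:90738989-90739288 (- strand), Clstn3 at chr6:124464735-124465034 (- strand, 1 of its 2 promoters) and Zic1 at chr9:91365719-91366018 (- strand).
Ucp1: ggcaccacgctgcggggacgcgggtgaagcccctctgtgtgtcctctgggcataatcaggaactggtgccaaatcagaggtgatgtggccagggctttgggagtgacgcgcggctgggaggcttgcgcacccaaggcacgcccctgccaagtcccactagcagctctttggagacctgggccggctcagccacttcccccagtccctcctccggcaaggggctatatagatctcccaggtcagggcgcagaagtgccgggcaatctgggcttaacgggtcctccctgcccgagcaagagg
Dio2: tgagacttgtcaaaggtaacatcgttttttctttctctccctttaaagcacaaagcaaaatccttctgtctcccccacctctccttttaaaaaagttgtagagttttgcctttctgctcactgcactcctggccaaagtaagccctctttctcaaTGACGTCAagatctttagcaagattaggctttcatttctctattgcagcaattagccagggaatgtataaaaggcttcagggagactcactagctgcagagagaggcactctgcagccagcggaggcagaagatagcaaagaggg
Clstn3: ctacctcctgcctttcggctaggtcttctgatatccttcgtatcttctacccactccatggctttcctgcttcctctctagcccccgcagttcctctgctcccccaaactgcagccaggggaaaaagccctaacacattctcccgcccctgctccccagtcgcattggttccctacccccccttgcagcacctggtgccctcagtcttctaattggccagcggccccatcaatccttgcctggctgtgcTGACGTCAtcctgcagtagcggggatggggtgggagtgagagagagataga
Zic1: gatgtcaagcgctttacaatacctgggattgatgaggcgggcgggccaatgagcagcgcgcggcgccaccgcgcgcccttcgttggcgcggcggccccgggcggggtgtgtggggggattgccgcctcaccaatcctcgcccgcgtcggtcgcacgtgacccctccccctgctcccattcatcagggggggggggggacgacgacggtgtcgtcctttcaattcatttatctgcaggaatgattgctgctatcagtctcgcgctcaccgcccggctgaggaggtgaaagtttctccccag
TGACGTCA was found, on either strand, in 6.45% of 31 promoters of the 22 thermogenic genes matched in the RefSeq table, those of Dio2 and Clstn3. It was in 7.14% of 42 promoters of 41 genes of the respiratory chain and in 1.79% of all 32851 promoters. AAGGTCA, a core motif of the oestrogen-related receptors, was in 3.23% of the thermogenic, 2.38% of the respiratory and 4.72% of all promoters, and its longer form TCAAGGTCA in none of the listed ones and 0.423% of all. The NRF1 motif stood in 3.23% of thermogenic promoters, in 19% of the respiratory ones, such as those of Cox6a1, Ndufa5 and Uqcrc1, and in 4.6% of all. Neither the Ucp1 nor the Zic1 window held any of these motifs.

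Markers of classical brown fat were mostly higher in brown fat and those of beige fat in subcutaneous fat. Of 10 classical brown markers, 8 were higher in brown fat, Epsti1 was lower and Meox2 did not pass the test, with a median log2 difference of 1.45 and 37.0% held (59.1% without TMM scaling, 64.3% on TPM). Zic1, a zinc finger factor of the dorsal somites, was the brown gene held least. It ranged from 6.28 to 12.2 CPM in brown fat. In subcutaneous fat it had 0 counts in 3 samples and 0.0322 to 0.0370 CPM in 4, while mouse 50 stood at 0.676 CPM. The means were 9.67 ± 1.77 and 0.101 ± 0.233 CPM over 1374 and 30 counts, a log2 difference of 6.72 (SE 0.75, adjusted p = 3.33e-06). Mouse 50 held most of the 30 counts, and the difference was 8.65 without that sample. Zic1 passed the filter on low counts through brown fat alone, so its direction followed from the filter.

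The other classical markers were held more. Mpzl2, an adhesion protein, was held at 14.2% with a log2 difference of 2.83 (SE 0.19), and Pdk4, which spares glucose by blocking pyruvate dehydrogenase, at 20.1% with 2.34 (SE 0.29). Oplah, an enzyme of glutathione turnover, was held at 33.3%, Ebf3, an early B-cell factor, at 40.6% and Lhx8, a LIM homeobox factor, at 48.8%. Lhx8 was low in both depots, at 3.56 ± 0.602 and 1.74 ± 0.583 CPM, and its difference of 1.06 (SE 0.18) was 0.37 on library totals and no longer passed. Hspb7, a small heat shock protein of heart and muscle, overlapped, at 3.73 to 85.7 CPM in brown and 1.13 to 65.0 CPM in subcutaneous fat. Its subcutaneous maximum was mouse 64, the sample highest in muscle transcripts, whose part was not tested. Its difference of 2.65 (SE 0.88) did not pass without brown mouse 57 (2.00) or subcutaneous mouse 55 (2.39). Epsti1, an interferon-responsive gene, stood at 2.46 ± 1.40 and 49.0 ± 12.6 CPM, a log2 difference of -4.38 (SE 0.30), beside the lymphocyte markers given above, whose part was not tested. Meox2, a homeobox factor, gave 0.21 (adjusted p = 0.131) and -0.47 on library totals.

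Of 11 beige markers, 10 were tested, 8 were higher in subcutaneous fat and 1 in brown fat, with a median of -2.03. Tmem26, a surface marker of beige cells, stood at 0 to 1.01 CPM in brown and 3.96 to 6.85 CPM in subcutaneous fat, with a log2 difference of -3.92 (SE 0.45, adjusted p = 2.38e-06). Tbx1, a T-box factor, ranged from 0.118 to 0.988 CPM in brown and 2.76 to 4.22 CPM in subcutaneous fat, a difference of -2.55 (SE 0.24). Both genes were thus found in every subcutaneous sample, at levels of a few CPM and without overlap between the depots. The filter on low counts takes a gene on its level in 1 depot alone. Tmem26 and Tbx1, both among the 8, passed it through subcutaneous fat, so their direction is not independent of the filter. Shox2, a homeobox factor of limb and trunk, differed by -2.04 (SE 0.15) and Klhl13, an adaptor of protein breakdown, by -1.56 (SE 0.16). Tnfrsf9 (-4.51), Cd40 (-3.09) and Sp100 (-2.02) were also lower in brown fat; lymphocytes and macrophages express them too, and the part of the lymphocyte and macrophage markers was not tested. Slc27a1, a fatty acid transporter, was the member higher in brown fat, at 0.85 (SE 0.19) with overlap, and it did not pass the test on library totals.

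**Figure D2:**
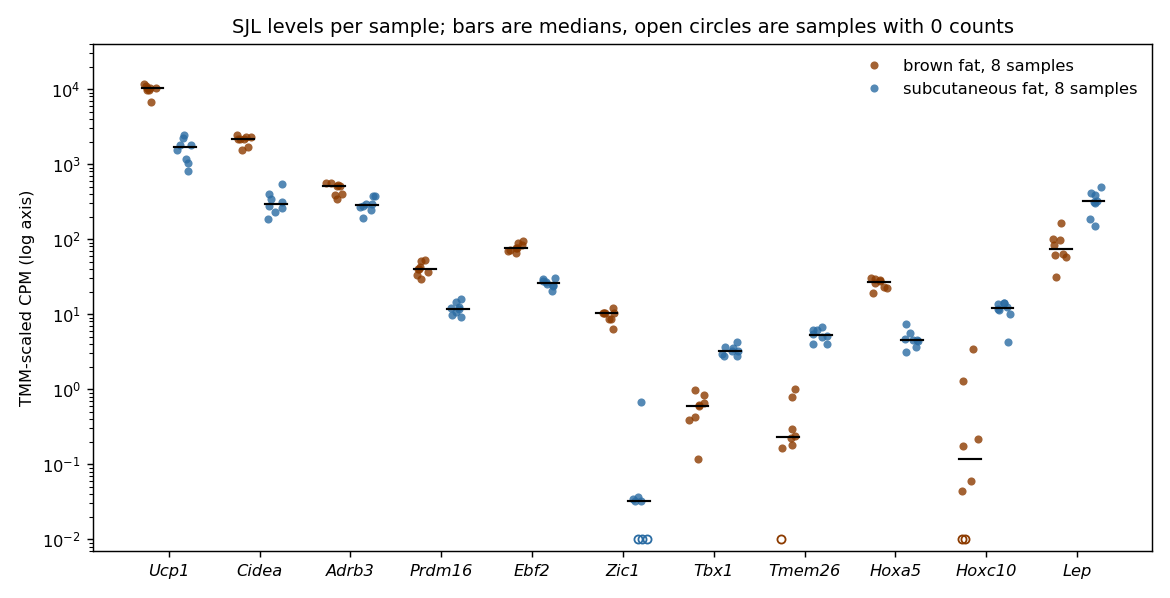
Level of 11 genes in each of the 8 brown and 8 subcutaneous SJL samples, in TMM-scaled CPM on a log axis; bars are medians and open circles are samples with 0 counts. Ucp1 is high in both depots without overlap, Adrb3 and Lep overlap, Zic1 is at or near 0 in subcutaneous fat, and Tbx1, Tmem26 and Hoxc10 are higher in subcutaneous fat.

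White fat genes were higher in subcutaneous fat. Of 16 listed, 14 were higher in subcutaneous and 0 in brown fat, and the median log2 difference was -2.03. Lep, which encodes leptin, ranged from 31.5 to 164 CPM in brown and 149 to 495 CPM in subcutaneous fat, with overlap and a difference of -1.98 (SE 0.35, adjusted p = 0.000188). Retn, which encodes resistin, was at 43.4 ± 9.35 and 260 ± 42.9 CPM, a difference of -2.59 (SE 0.15). Nnat, an imprinted membrane protein of fat cells, stood at 44.4 ± 14.9 and 359 ± 49.0 CPM (-3.05, SE 0.16). Slc7a10, an amino acid transporter used as a white fat surface marker, differed by -1.60 (SE 0.16), Psat1, of serine synthesis, by -2.42 (SE 0.13) and Dpt, of the matrix, by -2.09 (SE 0.15). Gpr83, an orphan receptor that T cells also carry, differed by -5.67 (SE 0.38), beside the T cell markers above, whose part was not tested. Npr3, the clearance receptor of natriuretic peptides, differed by -0.33 (SE 0.12) with overlap.

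Genes shared by all fat cells were closer. Of 20, 17 were higher in brown fat and 2 in subcutaneous fat, with a median of 0.87 and 54.7% held. This split rested on the scaling: it was 9 and 5 on library totals and 7 and 5 on TPM, and the share held was 87.8% and 95.7%. Slc2a4, the insulin-dependent glucose transporter, stood at 645 ± 104 and 148 ± 20.8 CPM (2.13, SE 0.12), and Retsat, of retinol metabolism, and Adipor2, an adiponectin receptor, differed by 1.67 (SE 0.11) and 1.30 (SE 0.09). Cfd, the fat cell protease adipsin, went the other way, at 733 ± 111 and 2543 ± 402 CPM (-1.79, SE 0.11).

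Hox genes, which record position along the body axis, ordered by their number. Of 39, 28 were tested, 11 were higher in brown fat and 11 in subcutaneous fat. Among numbers 1 to 5, 10 of 13 tested were higher in brown and 1 in subcutaneous fat, with a median log2 difference of 0.67. Among numbers 6 to 8, 1 of 8 was higher in brown and 3 in subcutaneous fat. Of 16 genes numbered 9 to 13, 7 passed the filter on low counts. All 7 were higher in subcutaneous fat, with a median of -3.02. The filter takes a gene on its level in 1 depot alone. A gene nearly absent from brown fat, such as Hoxc9, passed it through subcutaneous fat, so its direction followed from the filter. On library totals the counts over all 28 were 4 higher in brown and 18 higher in subcutaneous fat.

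Hoxa4 stood at 13.5 to 19.8 CPM in brown and 1.66 to 2.25 CPM in subcutaneous fat, 11.7% held, with a log2 difference of 3.09 (SE 0.09, adjusted p = 1.05e-10). Hoxa5, its neighbour, stood at 25.8 ± 3.92 and 4.75 ± 1.27 CPM (2.46, SE 0.15). Both were low in all 8 subcutaneous samples. Hoxc8 was at 7.91 ± 2.07 and 38.8 ± 5.92 CPM (-2.29, SE 0.15), Hoxa9 at 1.28 ± 0.447 and 10.4 ± 2.54 CPM (-3.02, SE 0.25) and Hoxc9 at 0.142 ± 0.219 and 7.59 ± 1.59 CPM (-5.79, SE 0.60). These posterior genes separated the depots without overlap. Hoxc10, a marker of subcutaneous fat of the lower body, was below 1.3 CPM in 7 brown samples and 3.49 CPM in mouse 54, and stood at 10.02 to 14.0 CPM in 7 subcutaneous samples and 4.31 CPM in mouse 64. Within cluster C the sign changed along the cluster, from 1.02 for Hoxc4 and 0.74 for Hoxc5 to -4.55 for Hoxc10. On TPM with 1 added Hoxc4 no longer passed (0.18) and the sign of Hoxc5 turned, to -0.06.

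**Figure D3:**
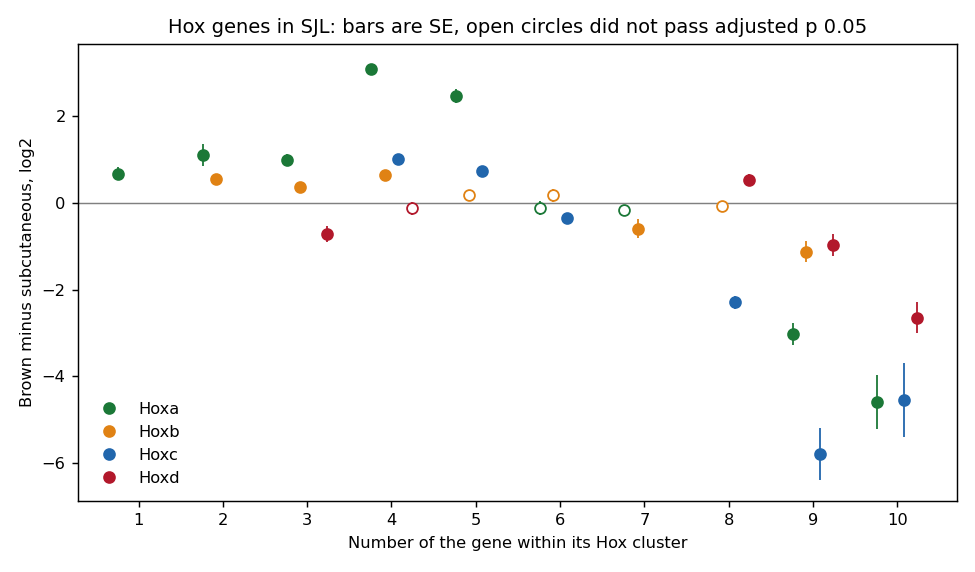
Log2 difference, brown minus subcutaneous fat, of the 28 tested Hox genes against their number in the cluster, coloured by cluster; bars are SE and open circles did not pass the test. Hoxa4 and Hoxa5 lie highest, and every gene numbered 9 or 10 lies below 0.

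Genes of mitochondrial fuel use were higher in brown fat in every pathway listed. All 21 genes of the citric acid cycle were higher in brown fat, with a median log2 difference of 2.11 and a lowest held share of 18.0% in Pdha1, a subunit of pyruvate dehydrogenase. Cs, the citrate synthase, stood at 2720 ± 308 and 651 ± 107 CPM. Fatty acid oxidation counted 24 of 26 higher in brown and 0 in subcutaneous fat (median 1.93), among them Acadm, the medium-chain dehydrogenase, at 2.05 (SE 0.12), and Eci1 and Etfa at 2.23 and 1.91. Of 66 nuclear genes of the respiratory chain, 64 were higher in brown fat and 1 in subcutaneous fat (median 1.75). Cox5a, of complex IV, differed by 2.02 (SE 0.10) and Ndufs7, of complex I, by 1.76 (SE 0.09), with no overlap in either.

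Of the 13 protein genes of the mitochondrial genome, 8 were higher in brown fat and 5 did not pass the test (median 1.94). All 13 were higher in brown fat by DESeq2, and also in edgeR without the subcutaneous sample of mouse 49. In that sample mt-Co2 stood at 2116 CPM, against 15.8 to 571 CPM in the other 7. mt-Cytb, of complex III, was at 44952 ± 4006 and 11823 ± 3228 CPM, a log2 difference of 1.94 (SE 0.16), and mt-Co1 differed by 1.73 (SE 0.16). Libraries were made from polyadenylated RNA, so these levels depend on how far mitochondrial transcripts carry poly(A) tails.

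Fat and sugar metabolism followed. Of 21 lipogenic genes, 19 were higher in brown and 0 in subcutaneous fat (median 1.84). Thrsp, a regulator of fat synthesis, stood at 3306 ± 835 and 502 ± 123 CPM (2.73, SE 0.19), and Mlxipl, which senses glucose, at 678 ± 111 and 111 ± 42.0 CPM (2.67, SE 0.19). Gpam, which begins triglyceride synthesis, was held at 23.0%. Of 24 genes of glucose and glycogen use, 21 were higher in brown and 1 in subcutaneous fat (median 1.70), with Pygl, a glycogen phosphorylase, at 2.49 (SE 0.16) and Ldhb, which turns lactate to pyruvate, at 2.35 (SE 0.15).

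The cAMP signalling genes were mixed. Of 22, 14 were higher in brown and 5 in subcutaneous fat (median 0.75), and on library totals 9 were higher in subcutaneous fat. Gnas, the stimulatory G protein, stood at 1912 ± 222 and 406 ± 44.9 CPM (2.23, SE 0.10). Adcy3 and Adcy5, both adenylyl cyclases, differed in opposite directions: Adcy3 was at 115 ± 13.9 and 32.5 ± 6.09 CPM (1.82, SE 0.11) and Adcy5 at 13.3 ± 2.67 and 81.2 ± 12.9 CPM (-2.61, SE 0.13). Pde4d, which degrades cAMP, differed by 1.78 (SE 0.11). Kcnk3, a potassium channel that restrains this signal in fat cells, stood at 440 ± 29.6 and 70.7 ± 19.6 CPM (2.64, SE 0.15).

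Heat production that does not use UCP1 was read from 13 genes of creatine and calcium cycling, of which 12 were tested, 5 were higher in brown and 1 in subcutaneous fat (median 1.40). By DESeq2, and in edgeR without subcutaneous mouse 64, which held muscle RNA, 8 were higher in brown fat. Alpl, the alkaline phosphatase of creatine cycling, was at 32.6 ± 3.39 and 12.2 ± 2.84 CPM (1.44, SE 0.11), and Atp2a2, a calcium pump, at 488 ± 61.7 and 175 ± 11.3 CPM (1.48, SE 0.08), neither with overlap. Ryr2, a calcium release channel, differed by 1.37 (SE 0.18).

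Among 15 secreted factors, 14 were tested, 5 were higher in brown and 4 in subcutaneous fat. Ptgds, which makes prostaglandin D, was at 18.8 ± 4.01 and 1.67 ± 1.18 CPM (3.59, SE 0.31), Vegfa, the vessel growth factor, at 528 ± 50.2 and 166 ± 27.0 CPM (1.68, SE 0.10) and Nrg4, a brown fat hormone, at 111 ± 15.5 and 52.6 ± 3.999 CPM (1.07, SE 0.08). Cxcl14, a chemokine reported from brown fat, was lower in brown fat (-1.41, SE 0.14). Of 14 nuclear receptor genes, 6 were higher in brown and 3 in subcutaneous fat, with Thra, a thyroid hormone receptor, at 1.03 (SE 0.06), Nr1d1, a clock gene, at 1.01 (SE 0.07) and Rara, a retinoic acid receptor, at -1.17 (SE 0.11). On library totals 7 of them were higher in subcutaneous fat.

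Markers of the other cells in the tissue differed as well. All 15 macrophage markers were higher in subcutaneous fat (median -1.75), and their summed level was 319 to 661 CPM in brown and 1506 to 2560 CPM in subcutaneous fat. Lyz2, their lysozyme, stood at 118 ± 32.7 and 929 ± 190 CPM. All 10 B cell and all 11 T cell markers were higher in subcutaneous fat (medians -5.76 and -5.89), with Cd3e, a chain of the T cell receptor complex, at 1.11 ± 0.811 and 70.9 ± 13.1 CPM. Of the 10 B cell and 11 T cell markers, 0 were at 0 in all samples of a depot.

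Stromal markers were mostly higher in subcutaneous fat, and vascular markers depended on the scaling. Of 13 progenitor and fibroblast markers, 11 were higher in subcutaneous fat and 1 in brown fat (median -1.06), with Pdgfra, a receptor of fat precursors, at 30.7 ± 5.98 and 72.4 ± 9.59 CPM and Cd55 at 10.02 ± 2.51 and 72.3 ± 11.2 CPM. Of 23 collagen and matrix genes, 19 were higher in subcutaneous and 2 in brown fat (median -0.86), such as Timp2 (-1.87, SE 0.18) and Dcn (-1.29, SE 0.13). Of 12 endothelial markers, 9 were higher in brown and 1 in subcutaneous fat (median 0.69), with Flt1 and Kdr, the receptors of VEGF, at 1.44 (SE 0.08) and 1.34 (SE 0.11). That count fell to 5 and 4 on library totals and to 2 and 4 on TPM. Of 8 smooth muscle and pericyte markers, 4 were higher in brown and 2 in subcutaneous fat (median 0.15), or 2 and 5 on library totals. The highest of them was Rgs5, a pericyte gene, at 1.31 (SE 0.10). Skeletal muscle markers summed to 664 to 15000 CPM in brown and 32.9 to 19370 CPM in subcutaneous fat; 5 of 15 were higher in brown fat, 11 without subcutaneous mouse 64. None of the 10 liver markers passed the test.

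**Figure D4:**
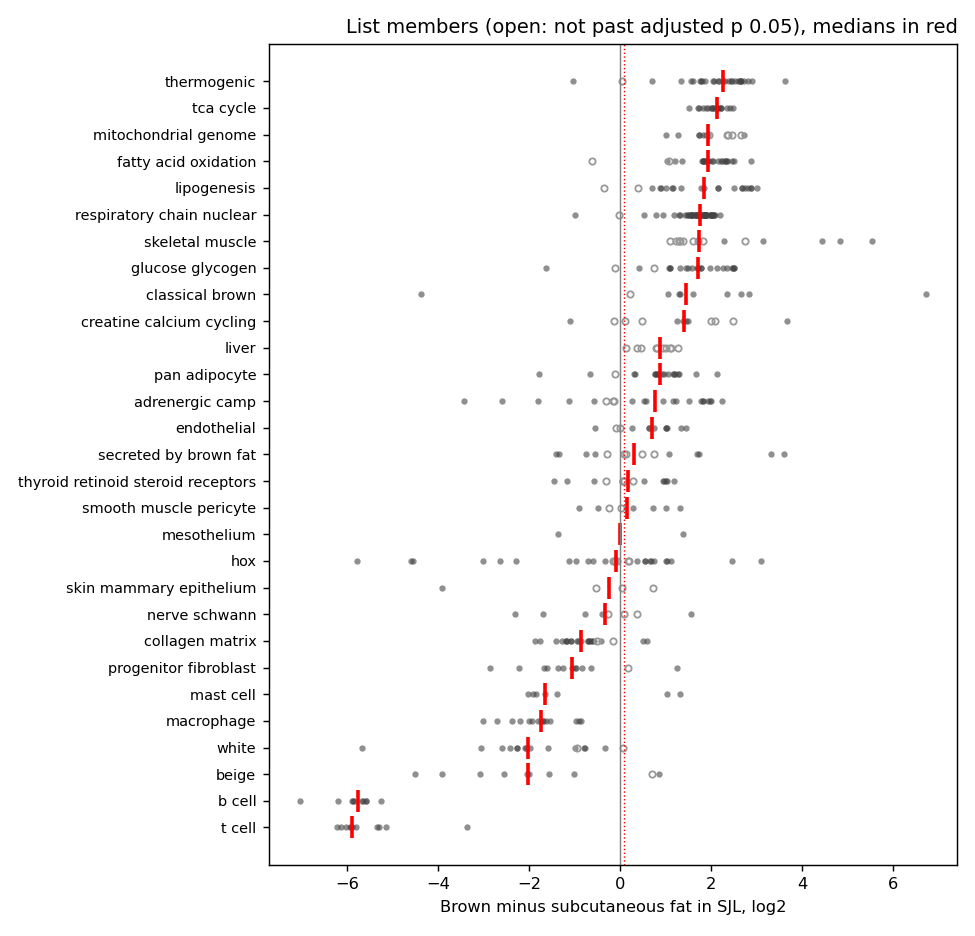
Log2 difference, brown minus subcutaneous fat, of each tested member of the 29 gene lists in SJL; open points did not pass the test, red bars are list medians and the dotted line is the median of all genes, 0.09. The thermogenic and citric acid cycle lists have the highest medians, 2.26 and 2.11, and B and T cell markers the lowest.

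Called genes were ranked if they had a mean of at least 5 CPM over the 16 samples, no depot overlap and an assigned symbol. Highest in brown fat were Lgr6 and Lncbate10. Zic1, given above, fell under the limit on the mean. Lgr6, a receptor for R-spondins, stood at 72.0 to 123 CPM in brown and 0.405 to 5.14 CPM in subcutaneous fat (5.56, SE 0.47, adjusted p = 3.12e-07). Lncbate10, a long noncoding RNA of brown fat, differed by 5.19 (SE 0.48), and Rspo4, an R-spondin, by 4.74 (SE 0.41). Lgr6 and Rspo4 were held at 2.45% and 3.86% of the brown mean. Both were taken from the top of this ranking, so they do not describe the R-spondin pathway as a whole. Odad4 (3.88), Myo5c (3.80), Olig1 (3.66), Fam151a (3.64), Acot11, Ptgds and Caln1 (3.46) followed. Fam151a overlaps Acot11 on the opposite strand, and whether counting used strand was not given, so their values may not be separate.

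Those highest in subcutaneous fat were immune genes for the most part. They were Apol7c (-7.59), Il22ra2 (-7.20), Glycam1 (-7.08), Il9r (-7.04), Cr2 (-7.04), Dsc3 (-6.98), Irgc (-6.74), Cd8b1 (-6.71), Ighg1 (-6.62) and Ccl19 (-6.37). Cr2, the complement receptor of B cells, stood at 1.46 ± 1.497 and 150 ± 28.2 CPM, and Glycam1, a ligand on lymph node vessels, at 1.08 ± 2.05 and 82.7 ± 36.4 CPM. Ccl19, a chemokine of lymphoid stroma, was at 0.988 ± 1.07 and 67.4 ± 14.3 CPM. These 10 genes were higher in the same depot as the B and T cell markers above, whose part was not tested. The lowest brown sample of each stood at 0 to 0.120 CPM. All 10 thus passed the filter on low counts through subcutaneous fat, and their direction is not independent of the filter.

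To ask whether these differences were those of fat in general or of SJL, the depot difference of SJL was tested against the mean of that in C57BL/6J, A/J and DBA/2J over 64 samples. Of 21589 genes, 1894 (8.77%) had a lower and 2527 (11.7%) a higher value in SJL, 4421 (20.5%) in all. On TPM with 1 added the split was 933 and 6464. Aligner settings were relaxed for every strain but C57BL/6J. Each strain's depot difference is taken within the strain. Of the 64 samples, 8 held liver RNA by the same limit and 1 subcutaneous sample of A/J had almost no Hoxc10; without these 9, 2874 genes had a lower and 1803 a higher value.

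The gap in thermogenic genes was smaller in SJL. Of 29 thermogenic genes, 21 had a smaller and 0 a larger depot difference in SJL, and the list median was 2.22 in SJL against 3.86 in the other strains. Over all genes, the median of the difference between them was 0.04. Ucp1 differed by 2.49 in SJL and by 7.08 in C57BL/6J, 5.18 in A/J and 7.77 in DBA/2J. The strain test gave -4.19 (SE 1.13, adjusted p = 0.00541). SJL was taken up with its Ucp1-rich subcutaneous fat already known from these data, so neither this p nor the list count above is independent support. Subcutaneous Ucp1, on the scale of the 64 samples, was 790 to 2397 CPM in SJL (median 1608), 0.163 to 651 CPM in C57BL/6J (median 4.78), 6.37 to 1254 CPM in A/J (median 35.8) and 8.79 to 109 CPM in DBA/2J (median 20.5). The lowest SJL sample thus lay above every sample of C57BL/6J and DBA/2J, and A/J overlapped it. Mean brown Ucp1 was 9938 CPM in SJL, 6302 in C57BL/6J, 10618 in A/J and 9594 in DBA/2J.

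Cidea, Cox7a1, Cox8b, S100b and Acot11 also had smaller depot differences in SJL. Their depot differences in SJL less those of the others were -2.68 (SE 0.48), -2.79 (SE 0.52), -2.63 (SE 0.31), -2.43 (SE 0.33) and -2.84 (SE 0.60), with adjusted p of 4.53e-05, 6.65e-05, 1.77e-08, 2.56e-07 and 0.000432. For Cox8b the subcutaneous samples of SJL, at 146 to 338 CPM, lay above all those of the other strains, the highest of which was 127 CPM in A/J. Dio2 gave -3.96 (SE 0.57, adjusted p = 1.11e-06), and here brown fat differed too: it was at 18.6 CPM in SJL against 62.9, 273 and 67.7 CPM in C57BL/6J, A/J and DBA/2J. Ppargc1a gave -1.13 (SE 0.26), Esrra -0.55 (SE 0.11), Adrb3 -0.76 (SE 0.22, adjusted p = 0.0113) and Pdk4 -2.39 (SE 0.35). Adrb3 did not pass on TPM with 1 added, at -0.51. All of these but Pdk4 belong to the same thermogenic list as Ucp1, for which SJL was taken up. Their p are thus not independent support either.

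Prdm16, Ebf2 and several lineage markers did not pass this test. Prdm16 differed by 1.81 in SJL and 1.64 in the others (0.16, SE 0.16, adjusted p = 0.536) and Ebf2 by 1.63 and 1.70 (-0.07, SE 0.18, adjusted p = 0.826). Zic1 gave 6.52 and 5.99 (0.52, SE 0.84, adjusted p = 0.717), but without subcutaneous mouse 50 its difference was 2.88 and passed the threshold, as did 0.46 on TPM with 1 added. Tbx1 gave 0.70 (SE 0.38, adjusted p = 0.206) and Tmem26 0.58 (SE 0.42, adjusted p = 0.368). Kcnk3 gave -0.58 (adjusted p = 0.064) and passed the test with RLE factors and by DESeq2 (-0.65 in both), and without subcutaneous mouse 50 (-0.64) or 64 (-0.62). A p that misses the threshold does not show that these differences are equal among strains. Of the 10 classical markers 3 had a smaller and 1, Lhx8 (0.88, SE 0.28), a larger difference in SJL; Lhx8 did not pass without the 9 samples named above (0.78).

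Mitochondrial genes shared the smaller gap. It was smaller in SJL for 62 of 66 nuclear genes of the respiratory chain, 20 of 21 of the citric acid cycle, 20 of 26 of fatty acid oxidation and all 13 of the mitochondrial genome, and larger for 0 in each list. Lipogenic genes counted 5 of 21. White fat genes were nearer too: 10 of 16 gave a positive difference, among them Mest, an imprinted gene of growing fat (2.65, SE 0.42), Slc7a10 (1.37, SE 0.24) and Retn (0.89, SE 0.24). Subcutaneous Mest was 10.7 to 26.5 CPM in SJL against 241 to 406 CPM in DBA/2J, without overlap. These ranges compare SJL with DBA/2J alone, so they do not show that subcutaneous Mest in SJL stood apart from every other strain. Lep gave 0.47 (adjusted p = 0.536).

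All 23 collagen and matrix genes and 10 of 13 progenitor markers also gave a positive difference. B cell markers counted 0 of 10 in either direction and T cell markers 1 of 11 below 0. Among Hox genes 10 of 28 gave a positive and 0 a negative difference, with Hoxb5 at 1.18 (SE 0.21) and Hoxd10 at 3.03 (SE 0.60). Hoxd10 was low throughout, at a mean of 0.126 CPM in SJL brown fat and 0.780 CPM in SJL subcutaneous fat. Hoxa5 (0.05) and Hoxc10 (1.09) did not pass the test. Ear2, a beige list member and an eosinophil ribonuclease, gave 1.48 (SE 0.28).

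Genes called in this test were ranked by p if they had a mean of at least 5 CPM over the 64 samples and an assigned symbol. The first 8 were none of the listed ones. Lhfpl6 (1.43, SE 0.11), Htatip2 (1.88, SE 0.15), Zdhhc14 (1.10, SE 0.10) and Pam (1.15, SE 0.11) had a higher value in SJL, and Ruvbl2 (-0.97, SE 0.08), Hdhd5 (-0.92, SE 0.08), Zfp982 (-3.88, SE 0.39) and Uevld (-1.37, SE 0.14) a lower one. For Htatip2 it was subcutaneous fat that stood apart, at 3.84 to 8.76 CPM in SJL against 18.4 to 36.4 CPM over the other strains. For Zfp982 it was brown fat, at a mean of 0.272 CPM in SJL against 17.3, 18.2 and 3.11 CPM in C57BL/6J, A/J and DBA/2J.

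**Figure D5:**
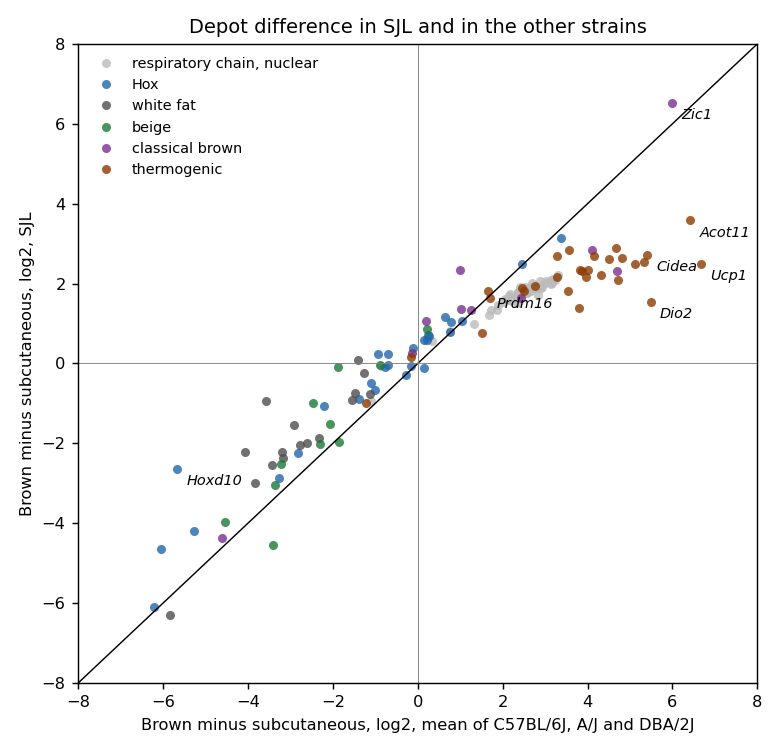
Log2 difference, brown minus subcutaneous fat, in SJL against the mean of the other 3 strains, for the members of 6 gene lists; the diagonal marks equal differences. Thermogenic and respiratory genes lie below the diagonal, while Prdm16 and Zic1 lie near it.

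A set of brown fat genes was then chosen without any SJL sample: genes called higher in brown fat of the other 3 strains, with a log2 difference of at least 3 and 5 CPM or more on average. It held 235 of 18961 genes (1.24%), of which 232 were tested in SJL. In SJL 221 of them (95.3%) were higher in brown fat and 0 higher in subcutaneous fat. The 11 that did not pass included mt-Co2, mt-Co3, mt-Nd3, mt-Nd4l, mt-Atp8 and mt-Ts1, and 100% of the tested set passed without subcutaneous mouse 49. In the other strains the set edge lay at Sdha (3.003 inside) and mt-Co1 (2.99 outside).

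Subcutaneous fat of SJL held a median of 20.3% of the brown level over these 232 genes, with the middle range from 14.0 to 25.0%. This median was 32.3% without TMM scaling and 35.1% on TPM. With TMM, 46 kept a log2 difference of at least 3 (8-fold), and the median was 2.34 against 3.77 in the other strains. The difference was smaller in SJL for 173 and larger for 0. The set was chosen by a large difference in these same samples of the other strains. Both comparisons with them are thus tilted toward a smaller difference in SJL and are not independent support. By share held on this scale, 12 genes were under 5%, 16 from 5 to 10%, 145 from 10 to 25%, 49 from 25 to 50% and 10 from 50 to 100%. Most of the set was thus held at 10% or more of the brown level, while 28 genes were held at less (15 without TMM scaling and 14 on TPM). The 10 genes from 50 to 100% were mt-Nd3, mt-Ts1, Atp6-ps, Gm10222, Gm13340, Gm13341, Gm28437, Gm28439, Gm28661 and Gm29216. The depots overlapped in each. Their lowest subcutaneous samples stood at 1.13 to 17.3% of the brown mean and their highest at 230 to 662%, so these mean shares do not describe most samples.

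Among genes with an assigned symbol, those held least were Zic1 at 1.05%, Lgr6 at 2.45%, Lncbate10 at 2.79% and Rspo4 at 3.86%, together with the slow muscle and heart genes Myh7 at 2.68%, Mhrt at 3.02%, Myh6 at 3.21% and Tnni1 at 3.99%. Myh7 ranged from 5.09 to 331 CPM in brown fat, and its highest subcutaneous value, 14.9 CPM in mouse 64, overlapped. Muscle marker sums over the same samples are given above, and their part in the muscle genes was not tested. Among those held most were mt-Nd3 at 52.1% and mt-Co3 at 47.4%, raised by mouse 49, and S100b at 39.7%, Dio2 at 35.4% and Acsm3, a fatty acyl-CoA ligase, at 33.6%.

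No gene passed the test of whether diet changed the depot difference. Of 18888 genes, 0 (0%) passed the depot by diet interaction in edgeR, 967 had an unadjusted p under 0.05, and the smallest adjusted p was 0.107. With 2 samples per diet and depot and 8 residual degrees of freedom, this shows only that no interaction was detectable with these samples. DESeq2 called 151 genes in the same model, limma on TPM with 1 added called 1, and edgeR without the filter called 2. Leaving out brown mouse 49 or brown mouse 50 gave 10 genes each, and leaving out subcutaneous mouse 63 gave 1.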

How the data were processed

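Per the labels' protocols, TRIzol and RNeasy Micro columns gave the RNA, and its polyadenylated part was made into stranded libraries for a NovaSeq6000. The reads were processed with FastQC, Trim Galore, HISAT2 on GRCm39 and HTSeq, per the submitters' processing notes. The tool versions, which annotation was used and whether counting used strand were not given in the sources used here. In the deposited tables the authors provided estimated counts with multiply aligned reads shared fractionally (74.2% of non-zero values in these depots were whole within 1e-06), and a TPM table, so genes with near-identical copies or antisense partners are uncertain. Names and positions came from GENCODE vM39, matched for 56236 of 56980 gene identifiers.

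Counts were rounded and tested with edgeR 4.0.16 in R 4.3.3: filterByExpr on depot (minimum count 10, minimum total 15), TMM scaling, robust quasi-likelihood F-tests and Benjamini-Hochberg adjustment over all genes tested, called under 0.05. The depot test used the 16 SJL samples with diet as covariate, and the strain test the 64 brown and subcutaneous samples. The set of brown fat genes was chosen in the 48 samples of the other 3 strains, with strain and diet as covariates. It was then read in the 16 SJL samples. Replicates are different mice, and the 2 depots of 7 mice come from the same animals. In these 7 pairs the deviations from the group means correlated at -0.72 to 0.71 over 12608 genes. For 0 of the 7 brown samples was the subcutaneous sample of the same mouse the best match. The pairing thus rests on the mouse numbers in the labels and was not seen in these values. Levels are mean ± SD of TMM-scaled CPM, SE is the log2 difference over the root of F, and share held is the ratio of depot means. Counting intervals were not used; the library totals above set the precision of low genes, and 3 counts over the 8 samples of a depot are 0.0208 CPM in brown and 0.0114 CPM in subcutaneous fat. The SJL depot test was tried on simulated counts in which few genes changed, in equal numbers up and down. That setting does not reach the data, where most genes differed and the calls depend on the scaling. The other tests were not simulated. Figures were drawn with matplotlib 3.10.9 in Python 3.11.15, and promoters were read from RefSeq sequences of GRCm38.p6.

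The 16 samples and all gene lists were chosen with earlier results of these data known. Named genes came from all tested members of the thermogenic, classical brown, beige, white and Hox lists, up to 4 members of each other list with the smallest adjusted p, the 10 genes most different in each direction, the 8 smallest p of the strain test with called members of those lists, and the 8 genes of the chosen set held least and most. Clstn3, mt-Co2 beside its mitochondrial list and Acsm3 fall under these rules or the set; the motif examples were picked after their values were seen. Alternatives were RLE factors, library totals, no filter, DESeq2 1.42.0, limma 3.58.1 on log2 of the authors' TPM plus 1 or plus 0.1 (mean of at least 1 TPM), no diet term or diet shared by both depots, the mouse as a block, each SJL sample left out, and, added after the data were seen, fits without samples with liver RNA or without Hoxc10. Some genes that this rule takes are not reported here.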

Additional observations from a re-analysis of the deposited data

Results flagged for a closer look

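A single sample stood apart from the other 7 of its depot, by a gap above the critical share of the range in Dixon's test, in 32 of 258 groups of 8 examined (12.4%); chance gives about 1 in 20. Brown fat of mouse 49, which held liver RNA, gave 10 of them: it was lowest in Ucp1 (6639 CPM), Esrra (185), Cpt1b (637), Clstn3 (313), Npr3 (100.2), Ndufs7 (256), Ldhb (435) and Ryr2 (12.9 CPM), and highest in Slc7a10 (26.4) and Csf1r (82.2 CPM). Subcutaneous fat of mouse 64, with liver and muscle RNA, gave 9: it was highest in Slc27a2 (382 CPM), Hspb7 (65.0), Nr1d1 (90.1), Ckm (1706), Myh7 (14.9) and Tnni1 (6.72 CPM), and lowest in Irf4 (19.5), Hoxc9 (3.86) and Hoxc10 (4.31 CPM). Brown fat of mouse 57, the third with liver RNA, was highest in Gk (415 CPM), Gpam (994) and Adcy3 (145 CPM).

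The others were single samples at the high end. They were, in brown fat, Ppargc1a in mouse 53 (86.4 CPM), Hoxc10 in mouse 54 (3.49), Adipor2 in mouse 59 (1432), Glycam1 in mouse 64 (6.04) and Ighg1 in mouse 50 (18.7 CPM). In subcutaneous fat they were Esrra in mouse 49 (86.1 CPM), Zic1 and Ptgds in mouse 50 (0.676 and 4.499), Klhl13 in mouse 55 (31.4) and Ighg1 in mouse 57 (402 CPM).

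Of the genes whose strain test the report prints singly, 26 had a depot difference that differed between SJL and the other strains by the test of the difference itself; other named genes that pass it are counted in the lists. It was lower in SJL for Ucp1 (-4.19), Dio2 (-3.96), Zfp982 (-3.88), Acot11 (-2.84), Cox7a1 (-2.79), Cidea (-2.68), Cox8b (-2.63), S100b (-2.43), Pdk4 (-2.39), Uevld (-1.37), Ppargc1a (-1.13), Ruvbl2 (-0.97), Hdhd5 (-0.92), Adrb3 (-0.76) and Esrra (-0.55). It was higher for Hoxd10 (3.03), Mest (2.65), Htatip2 (1.88), Ear2 (1.48), Lhfpl6 (1.43), Slc7a10 (1.37), Hoxb5 (1.18), Pam (1.15), Zdhhc14 (1.10), Retn (0.89) and Lhx8 (0.88).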

How the results depend on the processing

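The depot count of 13891 genes lay between 13555 and 14434 when 1 sample was left out, 13575 with the mouse as a block, and within 1.5 times under every other setting run, although its split by direction moved with the scaling. Under the block, which pairs the depots of 7 mice, the strain test called 4042 genes, the diet test 0 and the chosen set 98.7%; it turned the sign of Hoxc10 in the strain test, to -0.26. The strain count of 4421 moved to 7397 on TPM plus 1 and 6874 on TPM plus 0.1, and lay between 3719 (without subcutaneous mouse 49) and 5130 (without subcutaneous mouse 64). The diet test called 2 genes without the filter, 151 by DESeq2, 1 on TPM plus 1, and 0 to 10 with 1 sample left out. The share of the chosen set higher in brown fat was 93.1 to 100% with 1 sample left out, 97.8% with a log2 limit of 2 and 87.8% with a limit of 4.

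In the depot test the sign turned for Adrb3 (-0.088 on TPM plus 1, -0.089 on TPM plus 0.1), Hoxc5 (-0.059 and -0.062 on the same), Meox2 (-0.47 on library totals, -0.57 and -0.59 on TPM plus 1 and plus 0.1) and Zbtb16 (-0.061 with RLE factors, -0.059 by DESeq2, -0.64 on library totals, -0.11 without the filter, -0.68 and -0.77 on TPM, -0.21 without liver RNA, and -0.22 to 0.13 with 1 sample left out). In the strain test it turned for Ebf2 (0.18 and 0.19 on TPM), Tmem26 (-0.38 without the samples with liver RNA or without Hoxc10), Hoxc10 (-0.63 without brown mouse 54, up to 1.41 with another sample left out) and Hoxa5 (-0.0014 by DESeq2, -0.010 without subcutaneous mouse 59, up to 0.16 with another left out). The cause was not tested. The cAMP genes higher in subcutaneous fat rose from 5 to 8 without brown mouse 53 or 63 or subcutaneous mouse 50, 55 or 64. Depth limits genes under about 1 CPM, such as Hoxd10 and subcutaneous Zic1.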
